A study of Mus musculus with 6 samples.

Results

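The genes described here are 8 interferon regulatory factors, Irf1, Irf2, Irf3, Irf4, Irf5, Irf7, Irf8 and Irf9, found by their symbols among the 39179 genes of the deposited table. They were measured in B16F10.9, a pigmented melanoma line from C57BL/6 mice. RNA was sequenced from 3 libraries of cells that had received recombinant mouse IFN-gamma for 24 h and from 3 libraries of untreated cells, in triplicate seedings. The labelled dose was 50 µg/ml, a unit in doubt because cultured cells are usually given ng/ml. The libraries are those of 1 tumour line, and the labels leave unsaid whether the seedings were independent cultures. The spread behind the authors' test may thus be technical. The table has 1 FPKM (a fragment count relative to transcript length and to all fragments sequenced) per gene and group and none per library. No SD, n or new test across libraries can therefore be given for any level below, and the depth is unknown. All levels, scores and q-values are those of the authors' deposited table, and a gene is said to have risen or fallen where its q-value was under 0.05.

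Interferon regulatory factors are transcription factors that bind GAAA repeats, the interferon-stimulated response element (ISRE), through a tryptophan-rich domain at the amino end. IFN-gamma acts on promoters through the gamma-activated site (GAS), and Irf1 is an early target that passes the signal on. IRF9 gives the complex ISGF3 its contact with DNA, IRF3 and IRF7 drive type I interferon genes once they are phosphorylated below viral sensors, and IRF4, IRF5 and IRF8 are best known from immune cells.

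Of the 6 members above 1 FPKM in either group, Irf1, Irf2, Irf7 and Irf9 rose, Irf3 fell and Irf5 was not called. Irf4 was called higher at a level near the lower edge of the test, and Irf8 was not tested. Among all 17021 tested genes, 23.4% were called higher and 20.9% lower. The summed level of the 8 genes was 728 FPKM with IFN-gamma and 62.7 FPKM in untreated cells, an 11.6-fold difference. Without Irf1 and Irf7 the sum was 87.7 FPKM with IFN-gamma and 51.99 FPKM in untreated cells, or 1.69-fold. The make-up of the family differed accordingly: Irf1 and Irf7 held 87.96% of the sum with IFN-gamma and 17.0% of it in untreated cells, while Irf3 and Irf5 held 5.15% with IFN-gamma and 71.2% in untreated cells. With IFN-gamma the order of levels was Irf1, Irf7, Irf9, Irf2, Irf3, Irf5, Irf4 and Irf8. In untreated cells it was Irf3, Irf5, Irf1, Irf9, Irf2, Irf7, Irf8 and Irf4. Whether neighbours in these orders differ beyond the spread between libraries cannot be said.

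**Figure D1:**
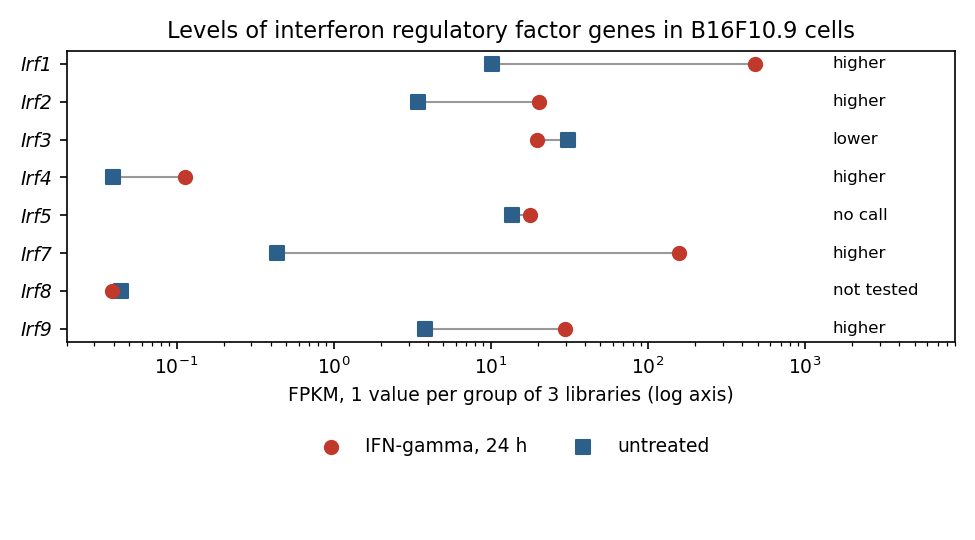
FPKM of each member on a log axis, 1 value per group, for cells given IFN-gamma (circles) and untreated cells (squares). At the right is the call made where the authors' q-value was under 0.05. Irf1 and Irf7 stand furthest apart from their untreated level, Irf3 lies to the left of it, and Irf4 and Irf8 stay under 0.2 FPKM in both groups.

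The promoters were searched for GAS and ISRE, the elements through which the pathway is known to act; whether a match bears on how a member moved was not tested. All 8 members had a window of 250 bases before and 50 after a start in RefSeq (GRCm38.p6), 11 windows in all. They were searched on both strands for the GAS core TTCNNNGAA, which reads the same on either strand, and for the ISRE core GAAANNGAAA, whose reverse complement is TTTCNNTTTC. Of all 32851 promoter windows 8.298% held a GAS core and 3.44% an ISRE core. Among the members a GAS core was found for Irf1, Irf2 and Irf8, and an ISRE core for Irf2. The windows of Irf3, Irf4, Irf5, Irf7 and Irf9 held neither, which says only that these letters do not occur there. The 190 bases from position -250 to -61 are shown in the direction of transcription for the 3 genes with a match and for Irf7, the member with the highest ratio. Capitals mark the matches. They lie at chr11:53769764-53769953 (plus strand) for Irf1, chr8:46739495-46739684 (plus strand) for Irf2, chr8:120736108-120736297 (plus strand) for Irf8 and chr7:141266485-141266674 (minus strand) for Irf7.
Irf1: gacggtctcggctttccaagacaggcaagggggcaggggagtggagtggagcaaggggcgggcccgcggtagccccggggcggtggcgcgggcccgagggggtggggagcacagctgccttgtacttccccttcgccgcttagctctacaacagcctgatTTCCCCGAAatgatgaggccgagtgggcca
Irf2: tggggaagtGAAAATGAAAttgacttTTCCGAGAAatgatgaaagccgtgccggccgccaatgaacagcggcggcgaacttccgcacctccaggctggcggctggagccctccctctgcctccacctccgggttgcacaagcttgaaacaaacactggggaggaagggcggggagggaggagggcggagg
Irf8: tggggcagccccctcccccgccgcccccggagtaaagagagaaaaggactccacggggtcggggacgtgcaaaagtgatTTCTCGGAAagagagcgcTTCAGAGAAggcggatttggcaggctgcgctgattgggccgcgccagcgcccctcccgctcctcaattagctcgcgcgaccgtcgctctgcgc
Irf7: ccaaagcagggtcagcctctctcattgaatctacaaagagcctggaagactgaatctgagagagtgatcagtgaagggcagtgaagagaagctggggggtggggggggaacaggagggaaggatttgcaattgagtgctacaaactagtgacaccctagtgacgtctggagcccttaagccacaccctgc

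The site in Irf1 reads TTCCCCGAA and begins 90 bases before the start. In Irf2 the ISRE core GAAAATGAAA begins at -241 and the GAS core TTCCGAGAA at -224. Irf8 has a pair of GAS cores, TTCTCGGAA at -171 and TTCAGAGAA at -153, a number of cores reached by 0.457% of all windows. A match to these short motifs is a description of the letters, and binding was not measured. Genes with a match thus included Irf1 and Irf2, which rose, and Irf8, which stayed near 0, while Irf7 and Irf9 rose with no match in the window. Both windows of Irf9 belong to starts inside the gene as GENCODE annotates it (55603985 and 55604579, with the gene beginning at 55603571), so the bases before the annotated gene start of Irf9 were not searched.

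**Figure D2:**
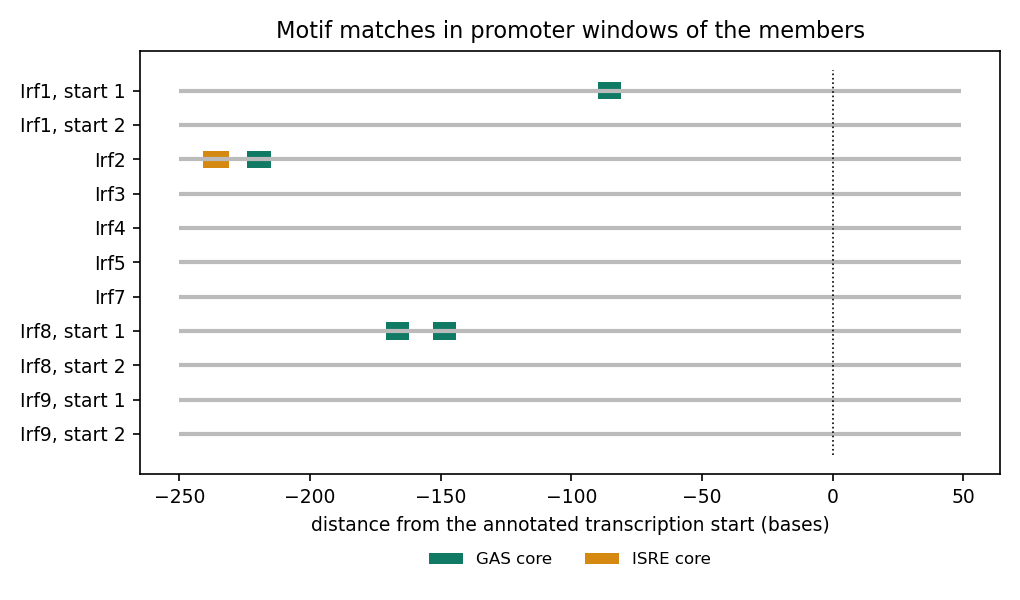
Matches to the GAS core and the ISRE core along the 11 promoter windows of the 8 members, by distance in bases from the annotated start (dotted line). GAS cores appear in 1 window each of Irf1 and Irf2 and as a pair in 1 window of Irf8, and the only ISRE core is that of Irf2.

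Irf1, the activator at the head of the secondary IFN-gamma response, had the highest level of the family after treatment. Its level was 482 FPKM with IFN-gamma and 10.2 FPKM in untreated cells, a log2 ratio of 5.56. The authors' deposited table gives it a test score of 21.3 and a q-value of 0.000187, the smallest the table holds. With IFN-gamma its level stood above those of 98.9% of tested genes, against 60.8% in untreated cells. The gene lies on chromosome 11 (53770014 to 53778374, plus strand, GRCm38, GENCODE M21). Gm17334, a predicted gene, lies on the opposite strand inside it (53772281 to 53773187) and shares 135 of its 907 exonic bases with Irf1 exons. Gm17334 was listed at 28.0 FPKM with IFN-gamma and 0.646 FPKM in untreated cells, a log2 ratio of 5.44 beside the 5.56 of Irf1. The library kit keeps no strand information, and fragments of the shared bases cannot be assigned to either gene. The level of Irf1 was 17.2 times that of Gm17334 with IFN-gamma and 15.9 times that in untreated cells.

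Irf2, a close relative of Irf1 that binds the same element and is known as its antagonist, rose as well, but less. It was at 20.3 FPKM with IFN-gamma and 3.42 FPKM in untreated cells, 5.94-fold (log2 ratio 2.57; test score 11.5 and q = 0.000187 in the authors' deposited table). With these unequal rises, the level of Irf1 was 23.7 times that of Irf2 with IFN-gamma and 2.99 times that in untreated cells. Irf2 lies on chromosome 8 (46739732 to 46847458, plus strand) and, with Irf4, is 1 of the 2 members listed alone in their locus.

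Irf7, the inducible factor that amplifies type I interferon production, had the largest ratio of the family. Its level was 158 FPKM with IFN-gamma and 0.436 FPKM in untreated cells, a log2 ratio of 8.51. Among the 12800 tested genes that reached 1 FPKM in either group this ratio ranked at place 276, ahead of Irf1 at 341, Irf9 at 491 and Irf2 at 551. Genes without a call, and any at 0 in untreated cells, were not left out of this ranking. The test score in the authors' deposited table was 4.41 (q = 0.000187), lower than that of Irf1 at a larger ratio. With a pseudocount of 1 FPKM the log2 ratio of Irf7 was 6.79, as its untreated level is below 1 FPKM. Irf7 lies on chromosome 7 (141262706 to 141266481, minus strand), tail to tail with Phrf1, with which it shares 45 exonic bases. Phrf1, at 21.0 FPKM with IFN-gamma and 15.6 FPKM in untreated cells, was not called (q = 0.278 in the authors' deposited table).

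Irf3, the constitutive partner of Irf7 below the viral sensors, was the only member called lower. It was at 19.6 FPKM with IFN-gamma and 31.0 FPKM in untreated cells, 0.633-fold (log2 ratio -0.66; test score -2.34 and q = 0.000187 in the authors' deposited table). The fall was smaller than 2-fold. Falls of at least 2-fold were called in 8.88% of tested genes, and falls of any size in 20.9%. With these opposite directions, Irf7 stood at 8.09 times the level of Irf3 with IFN-gamma and at 0.0141 times that level in untreated cells. Irf3 lies on chromosome 7 (44997648 to 45002848, plus strand), head to head with Bcl2l12, a gene of the BCL2 family by name, with 88 shared exonic bases. Bcl2l12 was listed at 5.17 FPKM with IFN-gamma and 7.50 FPKM in untreated cells (log2 ratio -0.54), without a call (q = 0.258 in the authors' deposited table). Gm15545, a non-coding gene of the same locus, was at 2.12 FPKM with IFN-gamma and 2.19 FPKM in untreated cells, also without a call.

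Irf9, the DNA-binding subunit of ISGF3, rose 7.73-fold. Its level was 29.7 FPKM with IFN-gamma and 3.85 FPKM in untreated cells (log2 ratio 2.95; test score 6.97 and q = 0.000187 in the authors' deposited table). Stat2, the gene of another ISGF3 subunit, was at 49.5 FPKM with IFN-gamma and 1.92 FPKM in untreated cells and rose too. The level of Stat2 was 1.66 times that of Irf9 with IFN-gamma and 0.501 times that in untreated cells. Irf9 lies on chromosome 14 (55603571 to 55610030, plus strand), directly downstream of Rnf31 on the same strand, and the annotated exons of the pair share 123 bases. Rnf31, which encodes the catalytic subunit of the linear ubiquitin ligase complex, rose as well. It was at 30.3 FPKM with IFN-gamma and 5.11 FPKM in untreated cells, 5.94-fold (test score 2.53 and q = 0.000187 in the authors' deposited table). The level of Irf9 was 0.981 times that of Rnf31 with IFN-gamma and 0.753 times that in untreated cells. Fragments were divided between these genes by the authors' software, and how that division bears on the ratio of either was not tested.

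Irf5, which drives inflammatory cytokine genes in myeloid cells, was not called. Its level was 17.9 FPKM with IFN-gamma and 13.7 FPKM in untreated cells, 1.31-fold (log2 ratio 0.39; test score 0.258 and q = 0.758 in the authors' deposited table). A ratio of like size, 1.29-fold, was called in Irf2bpl with a score of 1.72 (q = 0.00681 in the authors' deposited table). Irf5 lies on chromosome 6 (29526625 to 29541871, plus strand), tail to tail with Tnpo3, a nuclear import receptor gene, and they share 411 exonic bases. Tnpo3 was at 42.6 FPKM with IFN-gamma and 37.0 FPKM in untreated cells, without a call (q = 0.282 in the authors' deposited table). The missed threshold does not show that Irf5 kept its level.

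**Figure D3:**
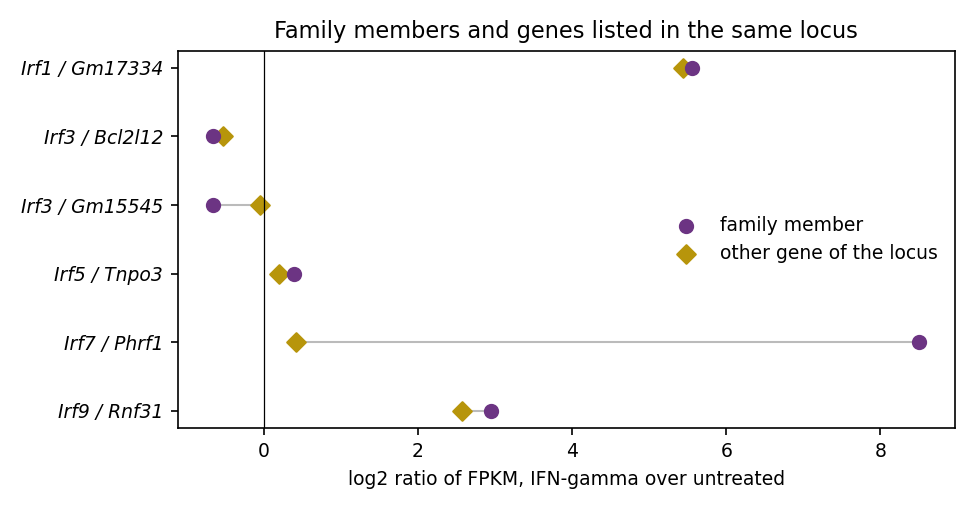
Log2 ratio of FPKM, IFN-gamma over untreated, for 5 members (circles) and each gene listed in the same locus (diamonds). Gm17334 and Rnf31 lie close to Irf1 and Irf9, while Phrf1, at 0.42, lies far from Irf7.

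Irf4 has a role in pigment cells, as IRF4 acts with MITF on the tyrosinase gene in human melanocytes. In this line it was hardly detected, at 0.113 FPKM with IFN-gamma and 0.0392 FPKM in untreated cells. Its q was 0.0101 and its score 1.93 in the authors' deposited table. This call supports nothing about its direction, as the test admitted no gene under 0.1 FPKM in both groups, the lowest value in the higher group of any tested gene being 0.106 FPKM. All 943 tested genes under 0.1 FPKM in untreated cells accordingly had a ratio above 1, and Irf4 is one of them. Of the 1256 tested genes under 0.2 FPKM in both groups 4.62% were called higher. Irf8, the myeloid factor whose promoter was shown above, was listed at 0.0386 FPKM with IFN-gamma and 0.0443 FPKM in untreated cells and was not tested.

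Irf8 also falls in an unusual locus of the table, which runs over 4.44 Mb of chromosome 8 and lists 182 other genes. The predicted gene Gm20388 is annotated across nearly the whole of it, and none of its exonic bases are shared with Irf8. Of the 80 tested genes in this locus 2, or 2.5%, were called, against 44.4% of all tested genes. They were Gins2, at 21.1 FPKM with IFN-gamma and 106 FPKM in untreated cells, and Emc8, at 74.0 FPKM with IFN-gamma and 277 FPKM in untreated cells, both named after their values were seen. Sharing a locus was common: 6 of the 8 members did so, and 48.2% of tested genes. Of those tested genes 34.3% were called, against 53.7% of the 8819 tested genes listed alone. The calls of Irf1, Irf3, Irf7 and Irf9 and the missing call of Irf5 all concern genes that share a locus.

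**Figure D4:**
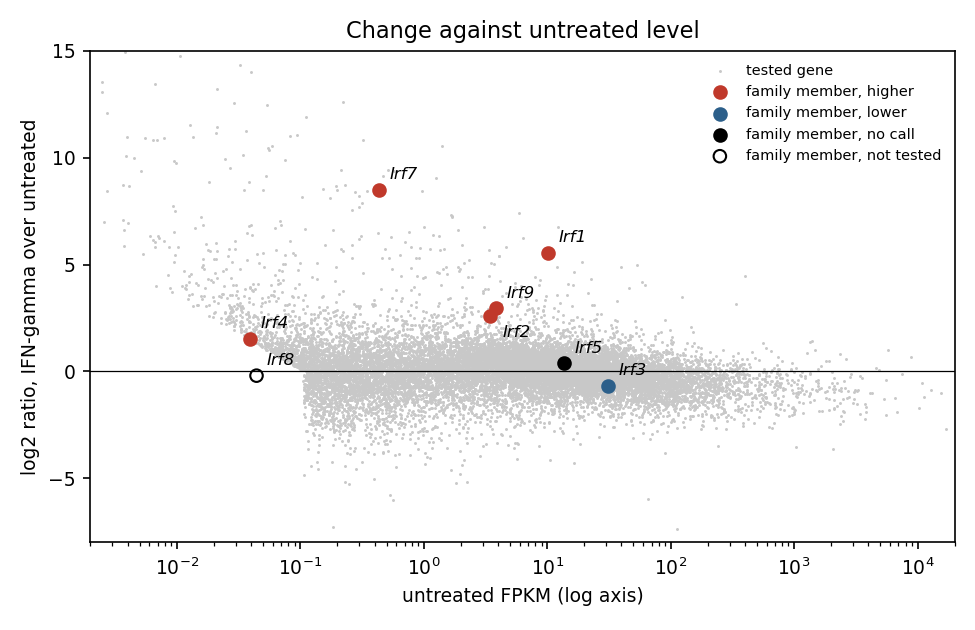
Log2 ratio of FPKM, IFN-gamma over untreated, against the untreated FPKM on a log axis, for 16466 tested genes (grey; 555 more lie outside the axes or have a group at 0) and the 8 members. Irf7 and Irf1 stand in the sparse upper field, Irf3 and Irf5 within the main cloud, and Irf4 on the slanted lower edge formed by the 0.1 FPKM limit of the test.

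Cell type markers set the immune-cell members in context. Of 13 haematopoietic markers found in the table, 10 were under 0.2 FPKM in both groups, among them Ptprc and Cd3e, and all 13 summed to 5.93 FPKM with IFN-gamma and 4.55 FPKM in untreated cells. The 4 tested markers went in both directions. Cd68, at 2.85 FPKM with IFN-gamma and 1.92 FPKM in untreated cells, and Cd79a, at 1.60 FPKM with IFN-gamma and 0.661 FPKM in untreated cells, were called higher. Itgam was called lower at a very low level, 0.0130 FPKM with IFN-gamma and 0.141 FPKM in untreated cells (q = 0.0217 in the authors' deposited table), and Lyz2, at 1.30 FPKM with IFN-gamma and 1.65 FPKM in untreated cells, was not called. The last pair was named after their values were seen. The 8 melanocyte markers ran from 30.1 to 4045 FPKM with IFN-gamma and from 22.4 to 2871 FPKM in untreated cells, so the defining genes of the labelled cell type were present. Of these 5 rose, 1 fell and 2 were not called, beside 23.4% called higher and 20.9% called lower among all tested genes. None of the 8 markers differed by 2-fold. The largest rises by ratio were those of Sox10 (1.74-fold) and Tyrp1 (1.73-fold). Sox10 was at 195 FPKM with IFN-gamma and 112 FPKM in untreated cells. Tyrp1 was at 4045 FPKM with IFN-gamma and 2337 FPKM in untreated cells. The fall was that of Tyr, at 107 FPKM with IFN-gamma and 142 FPKM in untreated cells (q = 0.00456 in the authors' deposited table). Dct and Pmel, the 2 without a call, were also listed lower with IFN-gamma. Tyr, Dct and Pmel were named after their values were seen. In bulk RNA a change in the number of cells expressing a gene and one in its RNA per cell cannot be told apart.

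Genes whose pair of levels lay nearest to a member were sought over the 2 group values, by Euclidean distance on the log2 scale. For Irf1 they were Ube2l6, Isg15 and H2-T22, at distances from 0.499 to 0.72. Ube2l6 encodes the conjugating enzyme for ISG15 and stood at 354 FPKM with IFN-gamma and 11.9 FPKM in untreated cells. For Irf7 they were Phf11d, Gbp3 and Parp14, at distances from 0.51 to 1.01. Phf11d was at 121 FPKM with IFN-gamma and 0.347 FPKM in untreated cells. For Irf9 they were Sp140, Il18 and Ctso, and Sp140 was at 26.8 FPKM with IFN-gamma and 3.82 FPKM in untreated cells. The nearest to Irf2 were Kcna5, Csf1 and Mir3098, and those to Irf3 were Kdelc1, Dbndd2 and the entry HOTAIRM1_4, at distances from 0.00708 to 0.0158. Mir3098 (q = 0.319 in the authors' deposited table) and HOTAIRM1_4 (q = 0.803 there) were not called, unlike the other genes near Irf2 and Irf3.

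Partner factors and cofactors of IRF proteins were counted as a list, chosen with earlier results of the data known. Of 10 tested genes 7 rose, 2 fell and 1 was not called, beside 23.4% called higher and 20.9% called lower among all tested genes. The median log2 ratio of the list was 1.45, against 0.04 over all tested genes. Batf2, which can pair with IRF1, rose from a low base: it was at 148 FPKM with IFN-gamma and 0.213 FPKM in untreated cells. Jun, the AP-1 subunit that pairs with BATF factors beside IRF4 and IRF8, was at 49.5 FPKM with IFN-gamma and 12.3 FPKM in untreated cells. The falls were those of Batf3, at 4.97 FPKM with IFN-gamma and 12.6 FPKM in untreated cells, and Batf, at 1.36 FPKM with IFN-gamma and 1.86 FPKM in untreated cells, both named after their values were seen. Spi1, the ETS partner of IRF4 and IRF8, was near 0, at 0.0242 FPKM with IFN-gamma and 0.150 FPKM in untreated cells.

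The genes of sensors, adaptors, ubiquitin ligases and kinases that act in the activation of IRF3 and IRF7 stood above their untreated level in all 15 tested cases. Of these 12 rose and 3 were not called, beside 23.4% called higher and 20.9% called lower among all tested genes. The median log2 ratio was 0.96, against 0.04 over all tested genes. Where calls also had to reach 2-fold, 7 were called higher. The RNA sensor gene Ddx58 was at 71.5 FPKM with IFN-gamma and 2.12 FPKM in untreated cells, and Ifih1 at 32.4 FPKM with IFN-gamma and 1.28 FPKM in untreated cells. Tlr3, an endosomal RNA receptor gene, was at 41.2 FPKM with IFN-gamma and 3.01 FPKM in untreated cells. Tmem173, which encodes the adaptor STING, was at 43.7 FPKM with IFN-gamma and 11.5 FPKM in untreated cells. The kinase gene Tbk1, named after its values were seen, was at 21.1 FPKM with IFN-gamma and 10.5 FPKM in untreated cells. None of the 15 was called lower. Type I and type III interferon genes, which include those that IRF3 and IRF7 drive, were all but silent. Of 18 found, none was tested and 11 were listed at 0 in both groups. The highest level was that of Ifnz, at 0.0804 FPKM with IFN-gamma and 0.0349 FPKM in untreated cells, and Ifnb1 was listed at 0.0569 FPKM with IFN-gamma and at 0 in untreated cells.

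Of 6 genes known to restrain the family 2 rose, 2 fell and 2 were not called, beside 23.4% called higher and 20.9% called lower among all tested genes, and nothing is read from counts this small. Trim21, a ubiquitin ligase that targets several IRF proteins, rose 23.8-fold, to 37.1 FPKM with IFN-gamma against 1.56 FPKM in untreated cells. Of the genes for IRF2-binding corepressors, Irf2bp1 fell to 12.8 FPKM with IFN-gamma against 19.7 FPKM in untreated cells. Irf2bpl was at 13.0 FPKM with IFN-gamma and 10.1 FPKM in untreated cells, and was called higher.

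The lists of genes downstream of the family had the highest medians of the lists counted here. Among all tested genes 23.4% were called higher and 20.9% lower, and the median log2 ratio was 0.04. Of 10 tested targets of IRF1 8 rose, 1 fell and 1 was not called, with a median log2 ratio of 6.33. Gbp2 was at 2112 FPKM with IFN-gamma and 1.40 FPKM in untreated cells. The fall was that of Cdkn1a, the gene of the cell cycle inhibitor p21 that IRF1 can activate, at 68.4 FPKM with IFN-gamma and 166 FPKM in untreated cells, named after its values were seen. The target without a call was Ciita, at 12.6 FPKM with IFN-gamma and 0.00693 FPKM in untreated cells (q = 0.257 in the authors' deposited table). Nos2 and Cybb, which IRF1 and IRF8 drive in macrophages, were not tested and stayed under 0.1 FPKM in both groups. All 15 tested targets of ISGF3 stood above their untreated level, 14 with a call, and their median log2 ratio was 6.26. Usp18, a feedback inhibitor of the type I receptor, was at 72.2 FPKM with IFN-gamma and 0.198 FPKM in untreated cells, and Ifit3 at 341 FPKM with IFN-gamma and 0.968 FPKM in untreated cells. These target lists were chosen with earlier results of the data known, and several genes are targets of IRF1 and ISGF3 alike, so their counts do not assign a rise to one factor.

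**Figure D5:**
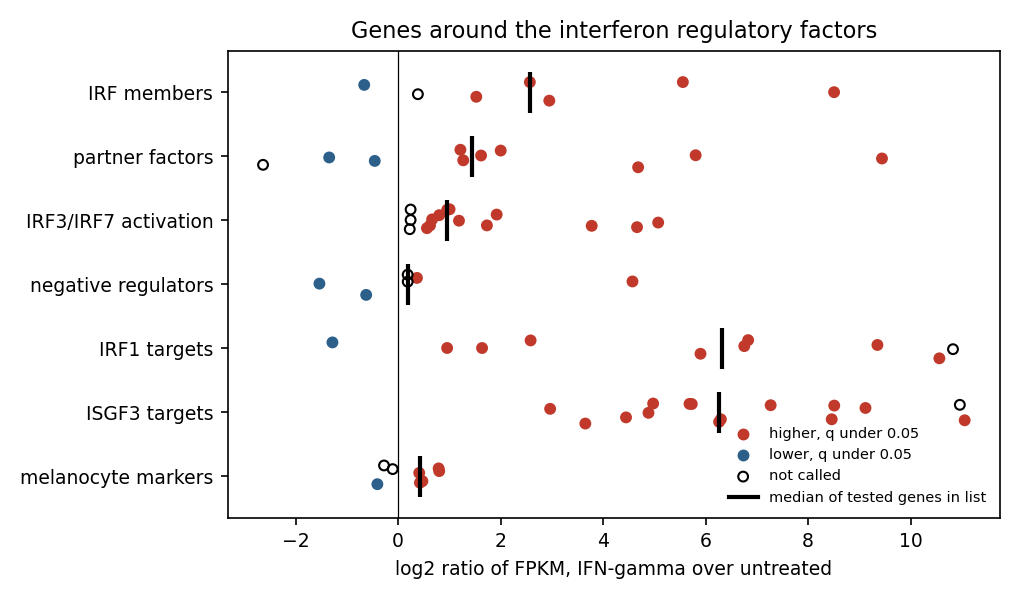
Log2 ratio of FPKM, IFN-gamma over untreated, for the tested genes of each list, filled where q was under 0.05 and open where it was not, with the list median as a bar. The medians of the IRF1 and ISGF3 target lists, 6.33 and 6.26, lie to the right of that of the 7 tested members, 2.57.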

How the data were processed

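RNA of 6 libraries, 3 of cells given IFN-gamma and 3 of untreated cells, was made into libraries with the TruSeq RNA V2 chemistry of Illumina, per the labels' protocols. The submitters' processing notes name TopHat2 2.0.11, Cufflinks 2.2.1, Cuffdiff and GRCm38. Their settings, annotation release and filters are not stated there. The deposited table gives FPKM, 1 value per group, with a score, a p-value and a q-value from the authors' test, per the file headers. A title line of the full sheet reads infected against uninfected, whereas the cells beneath name B16 and IFN, which were followed. The authors' log2 ratio in that sheet runs out of range at vanishing FPKM, so log2 ratios were recomputed from the FPKM values. The deposited sheet of significant genes, which adds the authors' log2 ratio and a linear fold, has the same FPKM for the 5 members it lists.

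The design's branch for tables of group values applied, so no model was fitted. Calls are the authors' q-value under 0.05, over 17021 tested genes; 4545 of these carry the smallest p-value, 5e-05. The members and gene lists were chosen with earlier results of these data known. Named genes were all members, up to 4 called genes per list by size of change, given 1 FPKM or more in either group (otherwise the 2 highest), locus neighbours, and the 3 genes nearest in level to Irf1, Irf2, Irf3, Irf7 and Irf9. Some list genes picked by this rule are counted but not reported singly here. Coordinates are from GENCODE M21 (GRCm38), promoter windows from RefSeq (GRCm38.p6). Alternatives covered thresholds, a low-level filter, scaling, transcript length and pseudocounts. The steps were tested on simulated data. Python 3.11.15, pandas 2.3.3, numpy 2.4.6 and matplotlib 3.10.9 were used.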

Additional observations from a re-analysis of the deposited data

How the results depend on the processing

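No paired analysis was possible because the deposited table gives 1 value per group and none per library, and leaving out single libraries was not run for the same reason. Of the 8 alternatives only the scaling and the length trend could turn a direction, and neither did for any member. The thresholds, the filter and the sheet of significant genes reuse the same ratio, and a pseudocount keeps its sign. Calls rest on the authors' test, which was not rerun. Only the stricter thresholds, the filter at 1 FPKM and the sheet of significant genes could therefore change one. With these Irf1, Irf2, Irf7 and Irf9 stayed called. With calls at q under 0.01 Irf4 (log2 ratio 1.53) lost its call, and the partner factors called lower were 1, the haematopoietic markers called higher 1 and called lower 0. Where calls also had to reach 2-fold, Irf3 (-0.66) lost its call, leaving 0 members lower. With that rule 7 activators of IRF3 and IRF7, 1 negative regulator, 0 melanocyte markers and 1 haematopoietic marker were higher, and 1 partner factor, 1 negative regulator and 0 melanocyte markers were lower. With the trend over transcript length taken out, the log2 ratio of Irf3 was -0.44 and that of Irf5 0.51. Pseudocounts of 0.1 and 1 FPKM gave Irf4 log2 ratios of 0.61 and 0.10. The filter at 1 FPKM and the sheet of significant genes gave no value for Irf4 and Irf8, and the sheet none for Irf5. Without Irf4, each left 4 members called higher. Depth is unknown, so the precision of the lowest levels cannot be stated.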
